A study of Mus musculus with 8 samples.

Results

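The genes described here were the relaxin family peptides Rln1, Rln3, Insl3, Insl5 and Insl6 and the receptors Rxfp1 and Rxfp2, 7 genes measured by 9 of the 41174 noncontrol probes on the array. Every probe whose gene name was one of these symbols, or an older symbol of the receptors (Lgr7 and Lgr8), was taken. The family was selected on the array signals of these same 8 samples, in which Rln1 and Insl6 were lower after Gen, so the differences of the members between the treatments are a description and carry no p-value. The samples were oviducts of CD-1 mice that, from PND1 through PND5, had received daily injections under the skin of corn oil alone (control, n = 4) or of the soy isoflavone genistein (Gen) at 50 mg/kg/day (n = 4). As adults of 6–8 weeks, all mice were superovulated and mated, and the oviducts were taken on day 2 of pregnancy (GD2), 48 hr after human chorionic gonadotropin, once the embryos had been flushed out. Each sample was an independent biological replicate and had 1 array. The methods give both oviducts of 1 mouse as 1 replicate for the adult PCR samples, and the array samples are taken here in the same way. The mice were superovulated, so the levels are those of a stimulated cycle, and whole oviducts were used, in which fewer cells of a type and less RNA per cell cannot be told apart.

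Relaxin family peptides are small secreted hormones related to insulin, cut from a longer precursor into an A and a B chain held together by disulfide bonds. In the mouse, Rln1 encodes the relaxin of pregnancy, which is made by the ovary and which softens connective tissue and widens blood vessels. Its receptor Rxfp1 and the Insl3 receptor Rxfp2 are G protein-coupled receptors with a large leucine-rich repeat region outside the cell, and both raise cyclic AMP. Insl3 is a hormone of Leydig and theca cells needed for descent of the testis. Rln3 is mainly a neuropeptide that acts on Rxfp3, Insl5 is a gut hormone that acts on Rxfp4, and Insl6 is known mainly from male germ cells and has no established receptor.

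The signals rest on probes of 60 bases, shown for the genes whose signals differed most and for the receptors, which had 2 probes each. Capitals mark a run of at least 8 bases that occurs 2 times in the same probe.
Rln1: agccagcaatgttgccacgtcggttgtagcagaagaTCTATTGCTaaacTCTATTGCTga
Insl6: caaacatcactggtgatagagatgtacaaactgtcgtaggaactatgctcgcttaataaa
Rxfp1 (cDNA probe): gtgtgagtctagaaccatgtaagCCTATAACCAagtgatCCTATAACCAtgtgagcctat
Rxfp1 (RefSeq probe): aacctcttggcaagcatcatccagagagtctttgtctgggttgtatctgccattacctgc
Rxfp2 (cDNA probe): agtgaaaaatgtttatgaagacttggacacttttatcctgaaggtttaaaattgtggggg
Rxfp2 (RefSeq probe): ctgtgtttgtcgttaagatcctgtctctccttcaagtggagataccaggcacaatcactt
The Rln1 probe held a run of 9 bases 2 times, and 1.53% of the probes on the array held a repeat at least as long. The Rxfp1 cDNA probe, designed from a transcript cloned from oviducts of pregnant mice, held a run of 10 bases 2 times, a length reached by 0.76% of probes. The other probes shown had no repeat of 8 bases.

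The array design placed the Rln1 probe at chr19:29031658-29031717 and the Insl6 probe at chr19:29021198-29021257, both on the minus strand of build mm7. The probes lay 10400 bases apart. The remaining ligand probes were placed at chr8:82621225-82621284 (Rln3, minus strand), chr8:70157953-70158012 (Insl3, plus strand) and chr4:102394373-102394432 (Insl5, minus strand).

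Of the 9 probes, 7 gave signals well above background on all 8 arrays. The Rxfp2 cDNA probe did so on 7 arrays (3 control and 4 Gen), the Rxfp2 RefSeq probe on none, and no member was saturated. "Well above background" is the flag set by the scanner software for each spot. Signals below are intensities scaled to a common 75th percentile on each array, with group means and differences taken on the log2 scale, and are compared only within a probe. The number of mice per group limits the precision.

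In the ligands, Rln1 had signals of 758, 695, 866 and 476 in control replicates 1 to 4, and of 205, 53.4, 214 and 76.4 in Gen replicates 1 to 4. Every control was above every Gen-treated mouse, and Gen replicates 2 and 4 were the lowest. The mean signal was 683 in controls and 116 after Gen, a log2 difference of -2.56 (SE 0.47, 95% interval -3.65 to -1.47) and a 5.90-fold lower level. The SD of the log2 signals was 0.37 in controls and 1.01 after Gen. Rln1 ranked 17th from the lowest log2 difference among the 24947 probes that all 8 arrays detected, a rank that comes from the contrast by which the family was chosen.

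Insl6 had signals of 5014, 7670, 6731 and 5949 in controls and of 3590, 1947, 4102 and 1839 after Gen. The groups did not overlap, and Gen replicates 1 and 3 lay above replicates 2 and 4, as they did for Rln1. The mean fell from 6265 to 2695, a log2 difference of -1.22 (SE 0.29, 95% interval -1.89 to -0.54), or 2.32-fold. The log2 difference of Rln1 was 1.34 larger in size than that of Insl6. The controls had no such common order: control replicate 3 was the highest for Rln1 and control replicate 2 for Insl6.

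**Figure D1:**
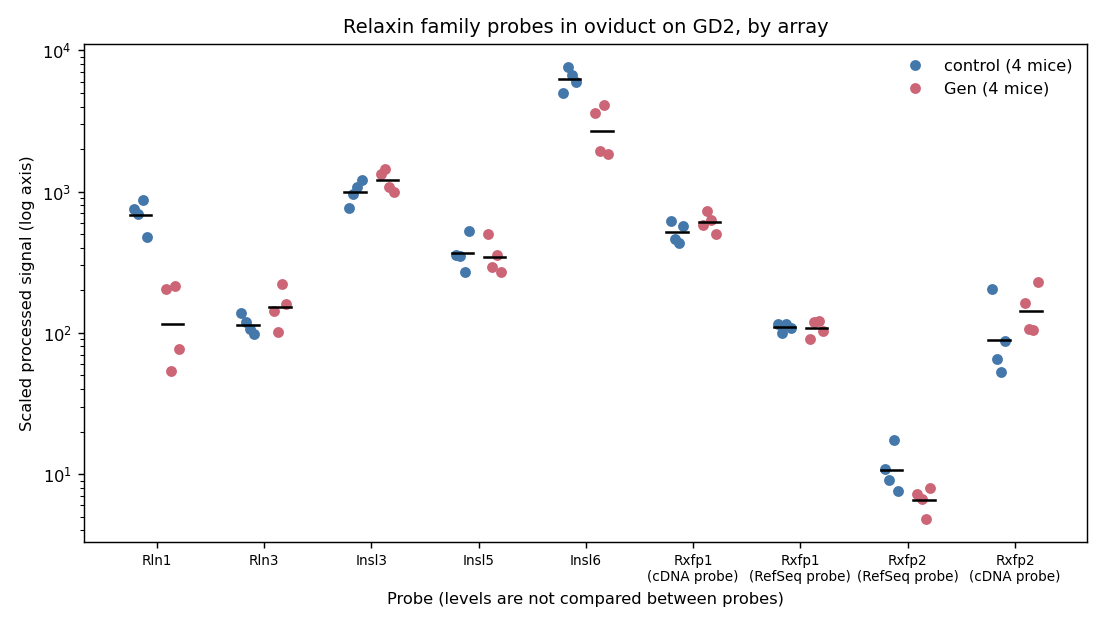
Scaled signal (log axis) of each member probe on each of the 8 arrays, with control and Gen-treated mice in separate columns, points for mice and a bar for the group mean. Rln1 and Insl6 are the members whose control and Gen values do not overlap among the 8 probes detected in at least 1 whole group.

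Called by limma at an adjusted p under 0.05 were 2 of the 9 probes, Rln1 and Insl6, both lower after Gen. Over the array 16.2% of the probes tested were called (14.0% lower), and of those that all 8 arrays detected 4.37% (2.44% lower). Groups without overlap were found for 2 of the 8 probes detected on all arrays of at least 1 group, both lower after Gen, against 12.5% of such probes on the array (6.47% lower). These counts restate how the family was chosen. Without Gen replicate 1, 2 or 3, or control replicate 1, neither gene was called, and without control replicate 2 or 3 or Gen replicate 4 Rln1 alone was. Over all 8 fits that lacked 1 array, the log2 difference of Rln1 lay between -2.86 and -2.19 and that of Insl6 between -1.42 and -1.03. The 4 controls shared 1 slide and the 4 Gen-treated mice another, and the effects of slide and of treatment cannot be told apart.

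The other ligands had smaller differences. Insl3 had signals of 763, 960, 1074 and 1205 in controls and 1336, 1451, 1083 and 988 after Gen, with overlapping groups and a log2 difference of 0.28 (SE 0.19, 95% interval -0.15 to 0.71). Rln3 had 137, 119, 106 and 98.3 in controls and 144, 102, 222 and 161 after Gen, a log2 difference of 0.41 (SE 0.24, 95% interval -0.14 to 0.95). Gen replicate 3 was the highest and replicate 2 lay within the controls. Insl5, the gut hormone, had 358, 352, 271 and 523 in controls and 500, 293, 353 and 270.6 after Gen, a log2 difference of -0.09 (SE 0.26, 95% interval -0.68 to 0.50) whose sign turned without scaling of the arrays (0.15), without control replicate 4 (0.08) and without Gen replicate 4 (0.03). None of these 3 genes was called.

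Rxfp1, the receptor for relaxin, was read by a pair of probes on chromosome 3 (chr3:79760468-79760527 for the cDNA probe and chr3:79757287-79757346 for the RefSeq probe). The cDNA probe had signals of 621, 460, 436 and 570 in controls and 584, 723, 631 and 503 after Gen, with a log2 difference of 0.23 (SE 0.17, 95% interval -0.16 to 0.62). The RefSeq probe had 115, 100.2, 116 and 109 in controls and 89.7, 119, 122 and 103 after Gen, with a log2 difference of -0.03 (SE 0.13, 95% interval -0.34 to 0.28). On both probes the groups overlapped, and the difference of the RefSeq probe turned to 0.21 without scaling and to 0.06 without Gen replicate 1.

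Rxfp2, the receptor for Insl3, also had a pair of probes, on chromosome 5. Its cDNA probe (chr5:149015260-149015319), designed from a hypothalamus transcript, had signals of 203, 65.2, 52.7 and 88.2 in controls and 162, 107, 104 and 229 after Gen. Control replicate 1 lay among the Gen values, and the log2 difference was 0.69 (SE 0.45, 95% interval -0.34 to 1.71). Its RefSeq probe, whose positions span 10606 bases (chr5:149003514-149014119), gave no signal well above background, with values of 7.6 to 17.4 in controls and 4.8 to 8.0 after Gen, so no fold is given. Probes never well above background had a median log2 difference of -1.16 over 7855 probes, against -0.01 over those detected on all 8 arrays.

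**Figure D2:**
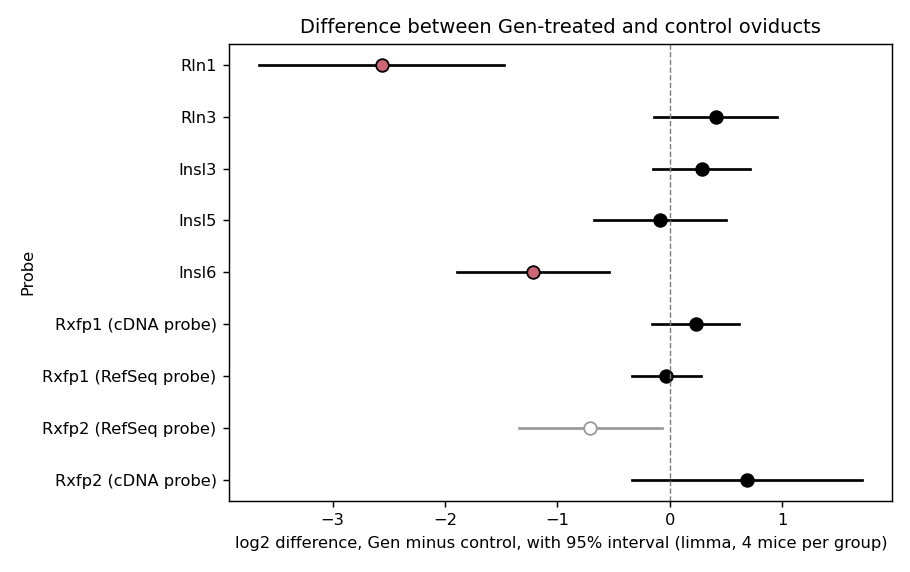
Log2 difference (Gen minus control) of each member probe, with its 95% interval from limma, the line at 0 and an open grey mark for the Rxfp2 probe that was never well above background. Of the 8 detected probes, only Rln1 (-2.56) and Insl6 (-1.22) have intervals that leave out 0, which restates how the family was chosen and is no test of it.

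Rxfp3 and Rxfp4, the receptors of Rln3 and Insl5, are G protein-coupled receptors of a different group that lower cyclic AMP. Rxfp3 had signals of 124, 51.3, 120 and 139 in controls and 225, 90.4, 105 and 351 after Gen, a log2 difference of 0.71 (SE 0.50). The groups overlapped, with 2 of the Gen values above all controls. Rxfp4 was well above background on 0 control and 4 Gen arrays, with signals of 18.4–38.5 and 30.1–51.0, and neither receptor passed the test. The dimmest signal that was flagged was 28.5–65.9 on control arrays and 14.5–20.9 on Gen arrays, so the flag counts of Rxfp4 show no rise.

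Of 87 genes listed for processing of the peptides, signalling below the receptors and tissues that respond to relaxin, 7 passed the limma test (2 higher and 5 lower, 8.05%), where 17.3% of all genes by their brightest probe did so (14.9% lower and 2.36% higher). Of the 79 listed genes that all 8 arrays detected, 5 were called (6.33%), against 4.61% of all genes so detected. The median log2 difference of the list was 0.02, and that of all genes was -0.06. In the Gs and cyclic AMP list, 2 of 22 genes were called lower. Adcy8, an adenylyl cyclase, fell from 223 to 90.6 (log2 difference -1.30, SE 0.28, limma adjusted p = 0.0236), and Adcy5, another, from 2053 to 1613 (-0.35, SE 0.10, limma adjusted p = 0.0468). In the list of Gi, phosphoinositide, MAP kinase and nitric oxide signalling, 2 of 19 were called lower, both inhibitory G protein subunits. Map2k2, not called, had a log2 difference of -0.54 (SE 0.15, limma adjusted p = 0.0509) without overlap. Gnai2 fell from 15757 to 11090 (-0.51, SE 0.10) and Gnai1 from 15589 to 10613 (-0.55, SE 0.12), each with a limma adjusted p of 0.0236, while the 3 other Gnai1 probes had log2 differences of -0.60, -0.11 and -0.07. With dim probes left out before the adjustment, only Gnai2 of the pathway genes was called, and none was called without control replicate 1 or Gen replicate 1, 2 or 3.

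None of the 28 matrix and vascular genes regulated by relaxin was called by limma (4 at an unadjusted p under 0.05, median log2 difference 0.09). The same held for the 7 prohormone processing enzymes (2 at an unadjusted p under 0.05, median 0.44). Over the array, 11610 of the 41173 probes tested had an unadjusted p under 0.05 in limma. Among 9 steroid and growth hormone receptors, Pgr, the progesterone receptor, fell from 375 to 240.3 (-0.64, SE 0.18, limma adjusted p = 0.0460). Its second probe was flagged well above background on just 1 array (Gen) of the 8, so no difference is given for it. The others that passed were higher. They were singled out after their values were seen, since both were well above background on 0 control and 4 Gen arrays. Esr2, an estrogen receptor, was at least 3.16-fold higher after Gen (means 18.96 and 126). Lhcgr, the luteinizing hormone receptor, was at least 2.77-fold higher (means 12.3 and 110.2), but its groups overlapped, with control replicate 3 at 40.7 above Gen replicate 3 at 34.1. The limma calls of Esr2 and Lhcgr rest on control values below the flag and are no support for a rise. Neither gene was called with dim probes left out (limma adjusted p = 0.0885 and 0.0899), with a floor or with normexp. The dimmest flagged signal was 28.5–65.9 on control arrays and 14.5–20.9 on Gen arrays, so the flag was reached at lower signals on Gen arrays. Each bound sets the Gen mean against the dimmest signal that was still flagged on each control array, or the gene's own signal there where that was higher.

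The region around Rln1 was looked at after its values were known. Within 300 kb of the Rln1 probe, 14 other probes (10 gene symbols, Insl6 left out) were detected on all 8 arrays, limma called none (2 at an unadjusted p under 0.05) and 1 had no overlap. Their log2 differences ran from -0.39 to 0.61, with Cd274 highest and a median of -0.17. Jak2, next to Insl6, had log2 differences of -0.25 (SE 0.11) and -0.26 (SE 0.14) on its 2 probes, and Plgrkt, on the other side of Rln1, had -0.01 (SE 0.12). Within 1000 kb, 1 of 36 such probes was called, that of Gldc (-1.75, SE 0.44). Over the array, 4.37% of the probes that all 8 arrays detected were called. Of the probes detected on all arrays of at least 1 group, 12.5% had no overlap. The counts around Rln1 were near these shares and do not set the region apart.

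**Figure D3:**
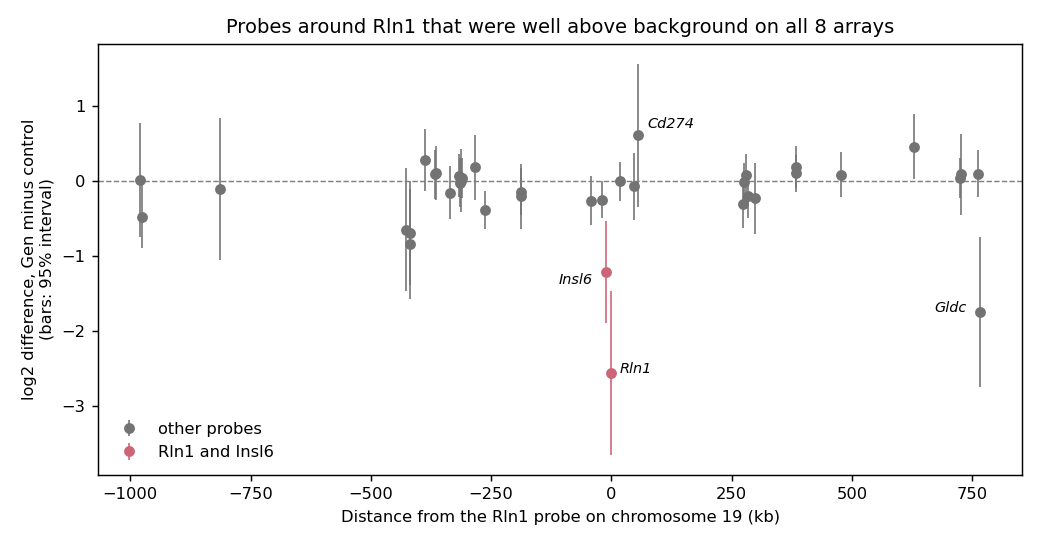
Log2 difference (Gen minus control, bars for the 95% interval) of probes well above background on all 8 arrays against distance in kb from the Rln1 probe, out to 1000 kb on either side. Rln1 and Insl6, of the family chosen on this contrast, stand at -2.56 and -1.22, and the 14 other probes within 300 kb lie between -0.39 and 0.61.

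The window around the annotated Rln1 start is shown because it is where a promoter would lie (RefSeq, GRCm38.p6, minus strand, 250 bases before to 50 after the start, chr19:29334621-29334920). It is a different build from the probe positions, and capitals mark a TATAAA 10 bases before the start.
Rln1 start: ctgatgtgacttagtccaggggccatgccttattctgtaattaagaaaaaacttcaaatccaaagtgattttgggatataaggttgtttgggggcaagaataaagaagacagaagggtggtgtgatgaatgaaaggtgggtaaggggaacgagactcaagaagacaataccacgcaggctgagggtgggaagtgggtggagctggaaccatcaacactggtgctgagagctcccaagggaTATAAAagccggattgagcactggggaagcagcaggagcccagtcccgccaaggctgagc
On either strand, TATAAA was found 1 time, and 13.6% of 32851 promoter windows held it. The estrogen response element, GGTCA and TGACC with 3 bases between them (0.07% of windows), its part GGTCA alone (40.5%), the progesterone and glucocorticoid element, AGAACA and TGTTCT with 3 bases between them (0.00913%), the cyclic AMP element TGACGTCA (1.79%) and the SF-1 site TCAAGGTCA (0.423%), which contains GGTCA, were not found, which says only that these letters are not in the window.

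Among 22260 probes compared with Rln1, the member with the largest SD of log2 signal over the 8 arrays (1.54), the 5 most like it had root mean square differences of 0.38 to 0.49 from its centred log2 signals over the 8 arrays, against a median of 1.45. They were Coch (-2.70 log2 difference), Lgi1 (-2.23), Cyp26a1, a retinoic acid hydroxylase (-1.99), Cyp2j11 (-2.05) and Myh7, a myosin heavy chain (-2.60). Insl6 ranked 72nd, at 0.78. All 5 had their lowest signal in Gen replicate 2, as Rln1 did. They were picked for likeness to Rln1 on these same arrays, so the shared low arrays restate that choice.

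**Figure D4:**
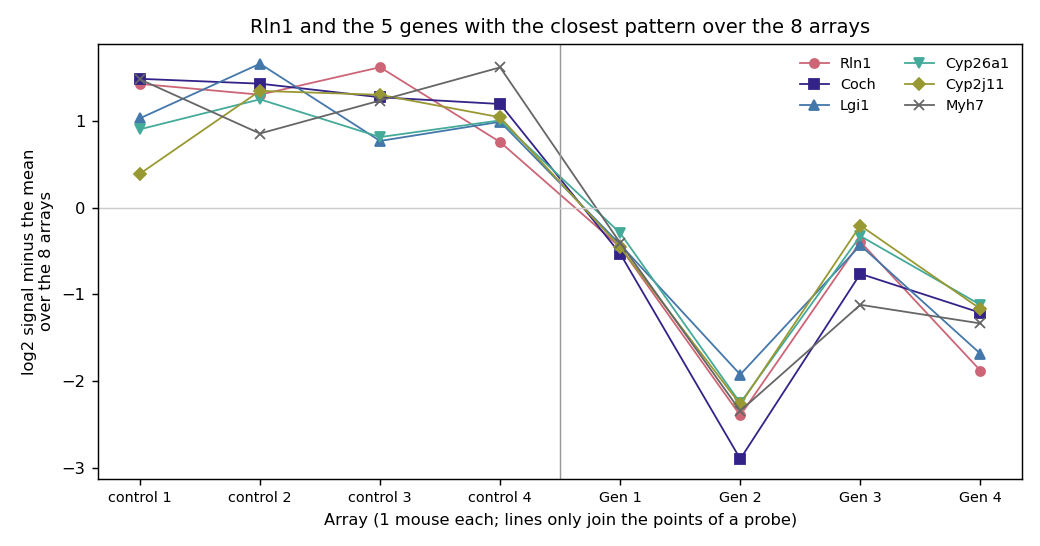
Log2 signal minus the probe's mean over the 8 arrays, for Rln1 and the 5 genes with the smallest root mean square difference from it (0.38 to 0.49), with lines that only join the points of a probe. Every gene is lower on the 4 Gen arrays than on the 4 control arrays and lowest in Gen replicate 2, a likeness for which the 5 were picked.

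Because the ovary is the main source of relaxin, genes of ovarian cells were read beside Rln1. Luteal and granulosa cell markers had 5 of 13 called higher and 0 lower (median log2 difference 1.88), where 2.36% of all genes were called higher. Of the 9 that all 8 arrays detected, 3 were called, against 4.61% of all genes so detected, called in either direction. Lhcgr and Cyp19a1, also called, were well above background on 0 control arrays. The summed signals of the list were 5390–32037 in controls and 36582–147082 after Gen. Hsd3b1 alone gave 18615 of the highest control sum and 88719 of the highest Gen sum. With dim probes left out before the adjustment, none of the 13 markers was called (lowest limma adjusted p = 0.0682). Cyp11a1, the enzyme that starts steroid synthesis, had signals of 238, 354, 3903 and 271 in controls and 23785, 21029, 4444 and 8710 after Gen (4.43, SE 0.96). Hsd3b1, which makes progesterone, had a log2 difference of 4.18 (SE 0.96), and Inha, an inhibin subunit, of 2.54 (SE 0.65). Of the 8 markers not called, Star had 1.80 (SE 0.64) with overlapping groups, and Foxl2 had 0.02 (SE 0.27). Akr1c18 was the only marker of the list with a negative difference (-0.39, SE 0.66). Control replicate 3, the control with the highest Cyp11a1, also had the highest Rln1 of the controls (866). The Gen arrays had no common order: replicates 1 and 2 had the highest Cyp11a1 (23785 and 21029) with Rln1 signals of 205 and 53.4, and replicates 3 and 4 had the lowest Cyp11a1 (4444 and 8710) with Rln1 signals of 214 and 76.4. Cyp11a1, Hsd3b1 and Inha were higher in the group in which Rln1 was lower, and the part of the luteal markers in the Rln1 result was not tested.

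**Figure D5:**
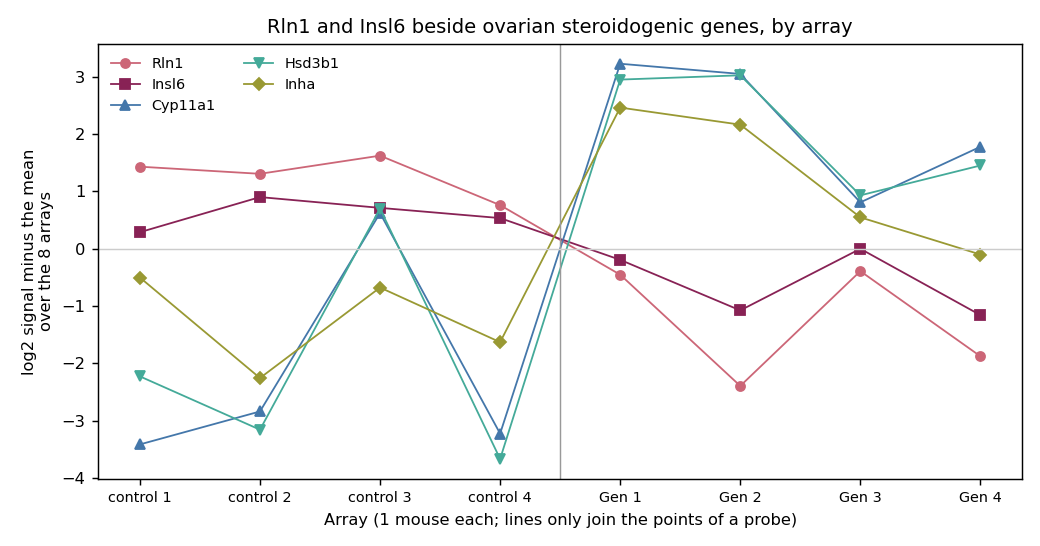
Log2 signal minus the probe's mean over the 8 arrays, for Rln1, Insl6 and the ovarian genes Cyp11a1, Hsd3b1 and Inha on each array, with lines that only join the points of a probe. Rln1 is lower and Cyp11a1 higher in every Gen-treated mouse than in every control, and control replicate 3 (Cyp11a1 signal 3903) lies nearest to the Gen arrays for Cyp11a1.

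Other marker lists were read on the same arrays. Ovgp1, the oviduct glycoprotein, was detected on all 8 arrays (log2 difference 0.06), and none of the markers of secretory epithelium (8), ciliated epithelium (10), smooth muscle (9), stroma (8) or endothelium (7) was called by limma (at an unadjusted p under 0.05, 2 of secretory epithelium, 2 of smooth muscle and 0 of the others). Oocyte and embryo markers (9 with a probe, none called and 8 at an unadjusted p under 0.05, median log2 difference 3.0) had summed signals of 487–5740 in controls and 5603–36920 after Gen. The counts at an unadjusted p under 0.05 stand against 11610 of the 41173 probes tested by limma over the array. The counts called that follow stand against 2.36% of all genes called higher and 14.9% called lower. B and plasma cell markers had 3 of 8 higher (1 with dim probes left out), and their summed signals did not overlap (13926–32253 and 50828–74951). Theca cell markers had 3 of 8 higher, which the luteal list also holds (summed signals 18623–49834 and 47244–171073), macrophage markers 1 of 7, and cumulus markers 1 of 8 lower, which was Pgr. With dim probes left out, none of the theca, macrophage or cumulus markers was called. Of stratified squamous markers 1 of 9 (Ivl) and of seminal markers 3 of 5 (Svs2, Pbsn and Svs7) were called lower. Of these Ivl, Svs2 and Pbsn, like Krt6a and Dsg3, were not well above background on any array, and Svs7 was so on 2 control arrays and 0 Gen arrays. The part of these lists in the results for the relaxin family was not tested.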

How the data were processed

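Oviduct RNA of 4 control and 4 Gen-treated mice was hybridised to Agilent whole mouse genome arrays with 1 dye. The authors deposited the scanner output of Agilent Feature Extraction 9.5, whose processed signal is a linear intensity, corrected for background and not scaled between arrays. The deposited series table held the same values. The array design gives probe positions on mm7.

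Outlier spots were left out, log2 signals of each probe were averaged, and arrays were scaled to a common 75th percentile. Gen and control arrays were compared with limma 3.58.1 in R 4.3.3 (lmFit and eBayes), with Benjamini-Hochberg adjustment over 41173 probes. For genes outside the family only the brightest probe counted. Names came from GRCm38.p6 tables for 22951 probes by accession and 9768 by name, and 8455 kept the name in the files. Motif letters were searched on both strands of RefSeq windows, which 5 of the 7 members had.

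The members, gene lists and tests were chosen with earlier results of these data known. All members were named, with Rxfp3, Rxfp4, the genes of each pathway list that passed the test and were detected on all 8 arrays, up to 3 marker genes of a list, and the 5 genes most like the member with the largest SD. Other genes were named after their values were seen.

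The steps were tested on simulated data of 41040 probes for Gen against control, in which 148 of 200 changed probes were recovered, 91.8% at 4-fold and 57.3% at 2-fold, with 9 false calls. The simulated noise was independent between arrays, with no slide effect and no shift of dim probes between groups. The simulation therefore gives no rate of false calls for the real arrays. Between 25391 and 31486 probes were well above background on an array. The lowest signal flagged so was 28.5–65.9 on control arrays and 14.5–20.9 on Gen arrays. Alternatives were quantile normalization, no scaling, normexp (offset 50), a floor at a signal of 65.9, outlier spots kept, dim probes left out, a robust fit with an intensity trend, the methods' t-test, averaging over a gene's probes, a block for replicate number, and each array left out. No genome of build mm7 was used, so exons and introns are not given.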

Additional observations from a re-analysis of the deposited data

Results flagged for a closer look

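Rxfp3, the receptor for Rln3, had a signal of 51.3 in control replicate 2, far from the other controls at 120–139. On the log2 scale, the gap to the nearest was 0.852 of the range of the group. That is above Dixon's critical value for 4 samples, and the flag rests on log2 signals, not on the signals printed here. In 32 groups checked, chance flags about 1 in 20, and this was the only one.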

How the results depend on the processing

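The log2 differences kept their sign in the 15 alternatives in which they were read for Rln1 (-2.86 to -1.98) and Insl6 (-1.42 to -0.98). Some of these alternatives, such as dim probes left out and the replicate block, leave the differences as they were. Because the groups of both genes did not overlap, leaving out 1 array could not turn the sign. Calls depended on the setting: of 17 alternatives Rln1 was called in 9 and Insl6 in 3. The probes called over the array, the family probes and the pathway genes numbered 6674, 2 and 7. They were 178, 0 and 0 with quantile normalization, 640, 1 and 2 without scaling, 251, 1 and 0 with normexp, 20, 0 and 0 with a floor, and 321, 1 and 1 with dim probes left out. At an unadjusted p under 0.05, limma had 3 family and 19 pathway results with quantile normalization, 22 pathway genes with normexp, and 2 and 15 with a floor. The methods' t-test with Benjamini-Hochberg adjustment gave 0, 0 and 0 (11364, 2 and 15 at an unadjusted p under 0.05). An intensity trend with a robust fit called 13 pathway genes. Family probes without overlap numbered 1 without scaling. Leaving out 1 array gave 1 to 7130 probes called over the array, 0 to 2 family probes called, 2 to 3 without overlap and 0 to 5 pathway genes. No family probe was called without control replicate 1 or Gen replicates 1, 2 or 3, and Rln1 alone without control replicates 2 or 3 or Gen replicate 4. With the replicate number as a block, 1 probe over the array and 0 family and 0 pathway genes were called (10264, 2 and 14 at an unadjusted p under 0.05 in limma). Same-numbered arrays correlated at -0.18 to 0.11 in their deviations and 0 arrays correlated best with their own number, so the numbers were not taken as pairing the samples. Causes were not tested.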
